A study of Mus musculus with 8 samples.

Results

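Mice that were sensitized and challenged with the allergen ovalbumin (OVA) while eating a feed that carries CpG oligonucleotide capsules (ODNcap-F) were compared with non-treated mice (NT) on whole-lung expression arrays. By the sample titles, 2 ODNcap-F and 2 NT arrays were selected, 4 of the 8 arrays measured. All mice were wild-type female BALB/c, bought at 4 weeks of age, housed for 2 weeks and then kept on their feed for 70 days. ODNcap-F mice received carbonate apatite particles loaded with the oligonucleotide MsST at 1 mg of particles per g of feed. OVA was injected into the peritoneum with alum on Days 42, 49 and 56, at 1 µg of OVA and 2 mg of alum, and a 2% OVA aerosol followed for 30 min a day from Day 63 to Day 69. NT mice received neither OVA nor particles and ate standard feed, and lungs were taken 24 h after the last aerosol. The comparison therefore contains the allergen and the feed together, and their contributions cannot be told apart within it. Another group of 2 mice, Ctrl-F, received the same OVA with the control feed, and their values are set beside the others. The remaining 2 mice, Cap-F, received the OVA and a feed with particles that carry no oligonucleotide. Ctrl-F and ODNcap-F were compared with the same NT mice, so both differences share any deviation of those mice.

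Inhaled allergen drives T helper 2 cells and innate lymphoid cells to secrete interleukins 4, 5 and 13, which recruit eosinophils, turn airway secretory cells into mucus-producing goblet cells and steer macrophages to an alternatively activated state. CpG oligonucleotides are ligands of Toll-like receptor 9, an endosomal sensor of unmethylated CpG DNA. The question addressed here is which lung transcripts of allergen-exposed mice on the capsule feed lay away from the level of non-treated mice, and which lay at it.

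The 8 arrays were on 1 slide and were read in 1 scan, and between 61.3% and 65.0% of the probes of an array were well above background. ODNcap-F arrays occupied row 2 of the slide and both NT and Ctrl-F arrays row 1. Row and group therefore cannot be told apart for ODNcap-F against NT. Over probes, the 2 NT mice correlated at 0.994 and the 2 ODNcap-F mice at 0.992. Levels are given as log2 signal after quantile normalization, on which 1 unit is a 2-fold difference. A fold given as at least some value is a bound under the main processing. For every gene given so, at least 1 alternative gave a difference smaller than the bound, so it is no floor across the processing. Genes were called where limma gave an adjusted p (Benjamini-Hochberg) under 0.05 and the difference was over 2-fold. A gene was counted as lying within 2-fold of NT where the 95% confidence interval of its difference stayed inside 2-fold on either side, and as unsettled otherwise. With 2 mice against 2, exact permutation of a single gene gives no two-sided p below 0.333. Nothing in the labels says that the mice came from separate cages, and in whole lung fewer cells of a type and less RNA per cell cannot be told apart.

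Of 28992 genes tested, 5999 (20.7%) were called in ODNcap-F against NT, 2859 higher (9.86%) and 3140 lower (10.8%). Within 2-fold of NT lay 18042 genes (62.2%), of which 8381 still had an adjusted p under 0.05, and 4951 (17.1%) were unsettled. Background correction by normexp lowered the number of called genes to 3142, of which 3120 were among the 5999. The median difference of all genes was -0.12, and the differences below are not corrected for it. Both ODNcap-F mice lay above both NT mice for 34.2% of all genes and below both for 48.1%. In Ctrl-F against the same NT mice 6603 genes (22.8%) were called, 3056 higher (10.5%) and 3547 lower (12.2%), and 17585 (60.7%) lay within 2-fold. The label of the tissue was checked against its markers. Of these, Sftpc and Scgb1a1 lay at the top of the measured range, where quantile normalization leaves little room for a difference. Sftpc, Sftpb, Sftpa1, Scgb1a1, Ager and Foxj1 lay within 2-fold of NT, and Hopx and Cldn5, of alveolar type 1 cells and endothelium, were called lower, Cldn5 at -1.09 but at -0.76 and not called after scaling to the 75th percentile.

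Over the 43 gene lists, which follow by the role of their members, 229 distinct members were called higher, 92 lower, 204 lay within 2-fold of NT and 130 were unsettled. The bar chart of list members by class shows how these shares run from lists that lay almost wholly above NT to lists that lay mostly below it. The listed genes Il9, Il25, Ccr1, Il22, Reg3b, Reg3a, Nos1, Mmp10, Col15a1, Spag6, Slc5a5, Clca2, Atp12a, Chrm1, Nkx2-5, Tbx20, Ucp1, Npas2, Fosl1, Epb42, Cyp4a12a and Cyp26a1 were not well above background on both arrays of any group and were not tested. Fer1l6, Cxcl11, Ly6g, Tpsab1, the immunoglobulin heavy chains, Mx1, Mx2, Ccdc40, Rtkn2, Sftpa2, Hrh2, Hbb-bs and Ahsp were matched to no probe.

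**Figure D1:**
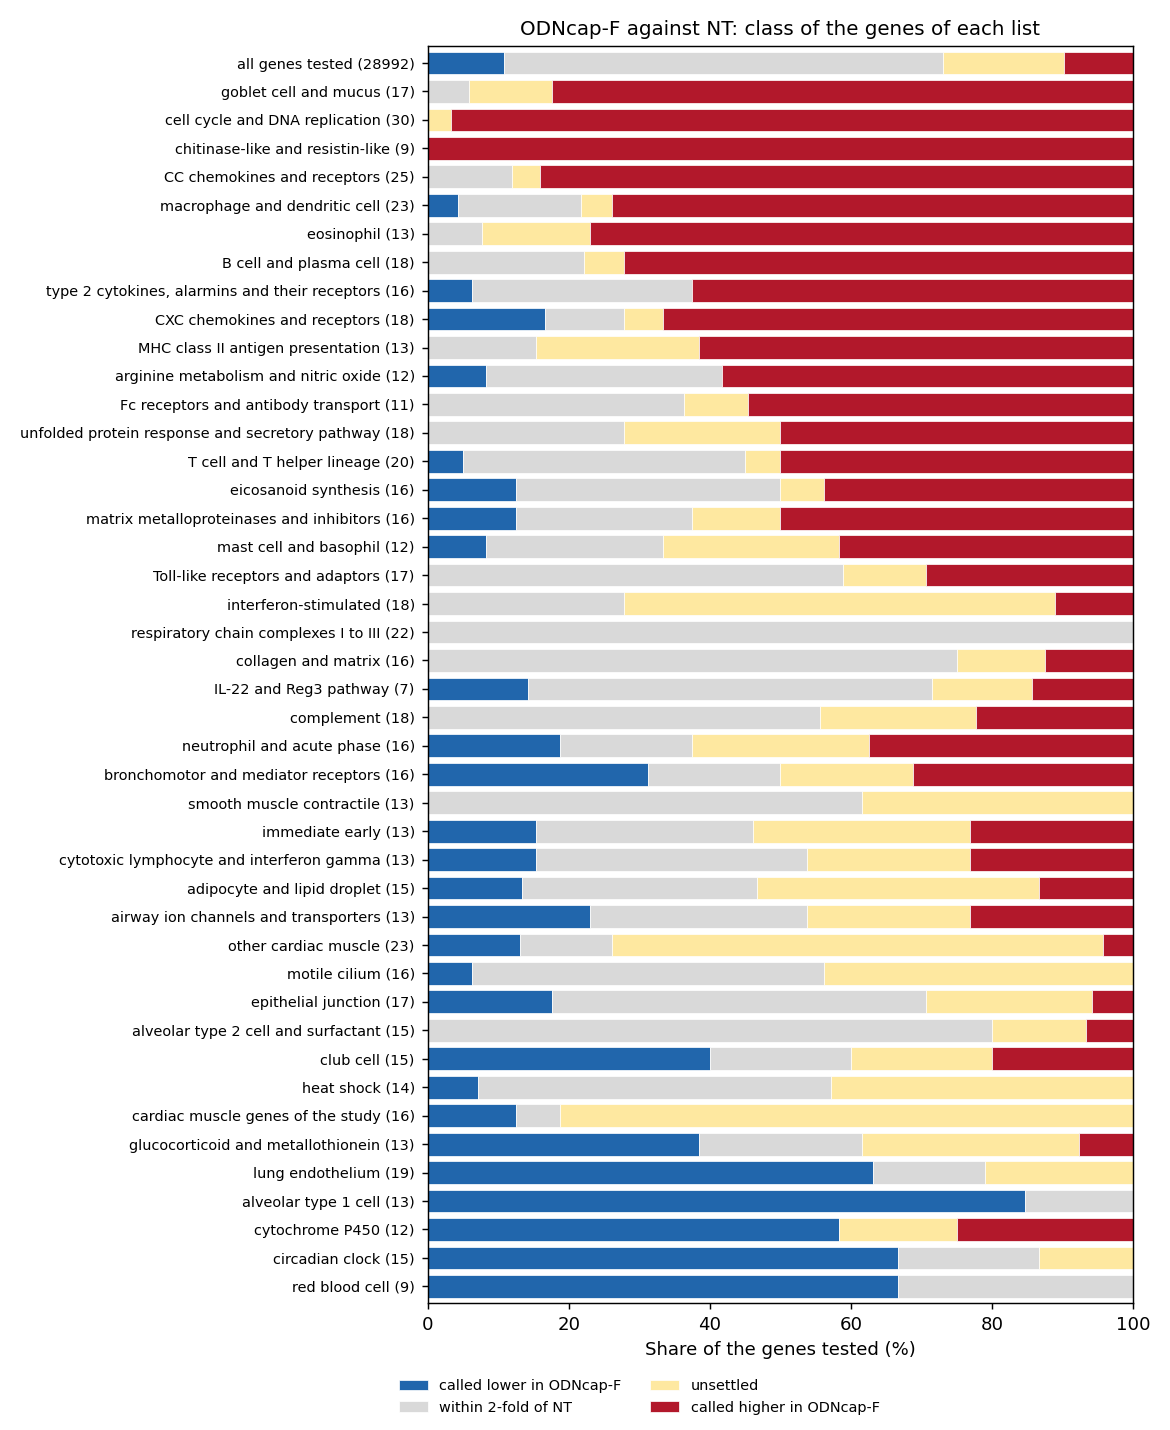
Share of the tested genes of each list, in percent, that were called lower (blue), lay within 2-fold of NT (grey), were unsettled (yellow) or were called higher (red) in ODNcap-F against NT, with the number tested in parentheses. All 9 chitinase-like and resistin-like genes were called higher, all 22 respiratory chain genes lay within 2-fold, and 11 of 13 alveolar type 1 cell genes were called lower, against 9.86% higher, 62.2% within 2-fold and 10.8% lower over all genes in the top bar.

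Among type 2 cytokines, alarmins and their receptors, 10 of 16 genes tested were called higher in ODNcap-F than in NT, 1 lower, and 5 lay within 2-fold, with a median log2 difference of 1.77. In Ctrl-F the corresponding counts were 10, 1 and 5, with a median of 2.03. Il4, the cytokine that commits T cells to the T helper 2 lineage, had log2 levels of 5.16 and 5.42 in NT, 9.16 and 9.14 in ODNcap-F and 9.11 and 9.28 in Ctrl-F. Both ODNcap-F mice lay far above both NT mice and inside the range of the Ctrl-F mice. The difference from NT was 3.86 (SE 0.12, adjusted p 9.52e-06). Il5, the growth factor of eosinophils, was not well above background in either NT mouse and stood at 5.90 and 6.30 in ODNcap-F, at least 5.57-fold higher. Il13, the main inducer of airway mucus, was likewise dim in NT and was at least 2.08-fold higher. After normexp neither was called, at 0.95 for Il5 and 0.24 for Il13. Il33, an alarmin of epithelial cells, rose by 2.13 on the log2 scale. Il13ra2, the decoy receptor of interleukin 13, was well above background in 1 of 2 NT mice and differed by 4.73. Il5ra, the eosinophil receptor of interleukin 5, rose by 3.19. Tslp, the other alarmin measured, was the gene called lower, at 8.07 and 8.37 in NT and 5.93 and 6.36 in ODNcap-F. The signaling receptor chains Il4ra and Il13ra1 lay within 2-fold of NT, at differences of 0.10 and -0.02, as did the transcription factors Gata3 and Stat6, at -0.24 and -0.38. When NT mouse 1, ODNcap-F mouse 1 or ODNcap-F mouse 2 was left out, the interval of Gata3 no longer stayed inside 2-fold.

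CC chemokines and their receptors stood higher in 21 of 25 genes, with none lower, 3 within 2-fold and a median of 2.80, against 21 higher, 1 lower and a median of 2.81 in Ctrl-F. Ccl8, a monocyte and T cell attractant, had log2 levels of 8.24 and 7.95 in NT, 16.29 and 16.34 in ODNcap-F and 16.06 and 16.57 in Ctrl-F. Its difference of 8.22 (SE 0.18, adjusted p 5.5e-06) was among the 3 largest of genes measured well above background in both groups. The eotaxins Ccl11 and Ccl24, which draw eosinophils through Ccr3, followed at 6.28 and 6.79. Ccl1 was not well above background in NT and was at least 30.2-fold higher. Its lowest log2 difference under any alternative was 2.73. Ccl5, Ccl25 and Ccr7 lay within 2-fold of NT, at -0.52, -0.08 and -0.22. Intervals left the 2-fold range for Ccl5 without NT mouse 2 or ODNcap-F mouse 1 and for Ccr7 without ODNcap-F mouse 1, and for Ccl25 over the mean of its probes, at 0.40. In the CXC family 12 of 18 genes were higher, 3 lower and 2 within 2-fold, with a median of 1.48, and in Ctrl-F 11 were higher and 3 lower, with a median of 1.60. Among them Cxcl5, a neutrophil attractant, differed by 5.92, Cxcl13, which attracts B cells, by 3.71, and Cxcl9, a target of interferon gamma well above background in 1 of 2 NT mice, by 5.68. Cxcl14, a homeostatic chemokine of epithelium, fell by 1.57. Cxcl12, which retains leukocytes in tissue, fell by 1.37 on its brightest probe, but the mean of its probes differed by 0.22, so that its probes disagree.

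Of 13 eosinophil genes 10 were called higher, none lower, 1 lay within 2-fold and 2 were unsettled, with a median of 2.39. In Ctrl-F 11 were higher, with a median of 2.43. Prg2, which encodes major basic protein, had log2 levels of 7.68 and 6.28 in NT and 10.64 and 10.22 in ODNcap-F, with 10.59 and 10.91 in Ctrl-F. The NT mice differed from each other more than the ODNcap-F mice did, and the groups did not overlap. Epx, eosinophil peroxidase, was at least 21.4-fold higher, since it was not well above background in NT. Under the alternatives its log2 difference was as low as 2.19. Alox15, a lipoxygenase of eosinophils and alternatively activated macrophages, rose by 4.69. The eosinophil ribonuclease Rnase2a, one of a family of near-identical genes whose probes may share signal, rose by 3.57. Mast cell and basophil genes were more mixed, with 5 of 12 higher, 1 lower and 3 within 2-fold, at a median of 0.65 in ODNcap-F and 0.77 in Ctrl-F. The mucosal mast cell proteases Mcpt1 and Mcpt2 were at least 31.8-fold and 5.46-fold higher. Under the alternatives their log2 differences were as low as 2.83 and 1.05. Among proteases of connective tissue mast cells, Cma1 and Tpsb2 lay within 2-fold at 0.17 and -0.12, while Mcpt4 rose by 2.64. Gata2, a transcription factor of mast cells and endothelium, fell by 1.53. Without NT mouse 1, NT mouse 2 or ODNcap-F mouse 1, 2 genes of the list were called lower. Mcpt genes are near-identical copies, so that their single values are uncertain.

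The list that lay furthest from NT was that of goblet cells and mucus, with 14 of 17 genes higher, none lower and 1 within 2-fold, at a median of 4.11 in ODNcap-F and 3.02 in Ctrl-F. Clca1, a secreted goblet cell protein, was at 17.06 and 17.23 in ODNcap-F and 16.91 and 16.68 in Ctrl-F, while only 1 of 2 NT mice, at 5.38, was well above background. Muc5ac, the inducible gel-forming mucin, had log2 levels of 4.63 and 4.48 in NT, 10.88 and 11.71 in ODNcap-F and 10.54 and 9.93 in Ctrl-F. Its difference from NT was 6.74 (SE 0.60, adjusted p 0.00032), and both ODNcap-F mice lay above both Ctrl-F mice. The Cap-F mice stood at 9.99 and 11.79, the higher of them above both ODNcap-F mice. The same order over Ctrl-F held for Itln1, an intelectin of goblet cells, at 14.47 and 15.52 against 14.15 and 13.85 in Ctrl-F and 7.74 and 7.58 in NT, with 13.68 and 15.05 in Cap-F. Muc5b, the constitutive airway mucin, and Spdef, the goblet cell transcription factor, rose by 4.11 and 2.37. Slc26a4, the anion exchanger pendrin, differed by 8.57 (SE 0.14, adjusted p 5.5e-06). Pigr, the epithelial transporter of dimeric antibody, was the member within 2-fold, at 14.87 and 14.90 in NT and 14.93 and 14.89 in ODNcap-F on its brightest probe. The mean of the Pigr probes differed by 1.83, so that its probes disagree. In ODNcap-F against Ctrl-F the goblet cell list had a median of 0.72, none of its genes was called, and 4 of them lay within 2-fold, so that most were unsettled in that direct comparison.

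Chitinase-like and resistin-like genes, markers of alternatively activated macrophages and of secretory epithelium, were called higher in 9 of 9, with a median of 2.88 in ODNcap-F and 2.81 in Ctrl-F, where 9 of 9 were called too. Retnla (resistin-like alpha) had levels of 11.57 and 11.55 in NT and 17.14 and 17.02 in ODNcap-F. Its difference of 5.52 (SE 0.07) shared the smallest adjusted p of the comparison, 4.12e-06, which the adjustment gave to several probes alike. Retnlb was at least 269-fold higher, as it was not well above background in NT, and Chil4 and Chia1 rose by 8.06 and 2.92. Chil3 and Chil4, and the resistin-like genes, are near-identical in parts, and their probes may share signal. The promoter of Retnla is shown because the gene marks this group and because its window holds a match to a STAT-type motif, TTC and GAA with any 4 bases between them, searched on both strands. In the RefSeq windows of 250 bases before to 50 after a start (GRCm38.p6), this motif was found in 6.95% of all promoters, 5.67% of those of tested genes, 7.97% of those of genes called higher, 6.06% of those of genes called lower and 5.2% of those of genes within 2-fold. Of the 8 promoters of the chitinase-like and resistin-like list, 2 held it (25%), and of the 17 of the type 2 cytokine list 3 did (17.6%). In the other lists searched it was not more frequent. It was in 0 of 9 promoters of goblet cell genes and 1 of 19 of CC chemokine genes (5.26%). For the cell cycle list it was in 1 of 25 (4.0%) and for the circadian clock list in 0 of 18. The related motif with 3 bases between, TTCNNNGAA, was in 8.3% of all promoters and in 8.03% of those of genes called higher. Capitals mark the match, which begins 145 bases before the start, in the window chr16:48842359-48842658 on the plus strand.
Retnla: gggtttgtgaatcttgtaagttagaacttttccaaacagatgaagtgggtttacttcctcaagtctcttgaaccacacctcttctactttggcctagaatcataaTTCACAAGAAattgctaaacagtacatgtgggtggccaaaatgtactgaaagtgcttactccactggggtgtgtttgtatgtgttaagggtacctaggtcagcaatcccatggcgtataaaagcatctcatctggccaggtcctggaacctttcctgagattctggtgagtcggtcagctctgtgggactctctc

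**Figure D2:**
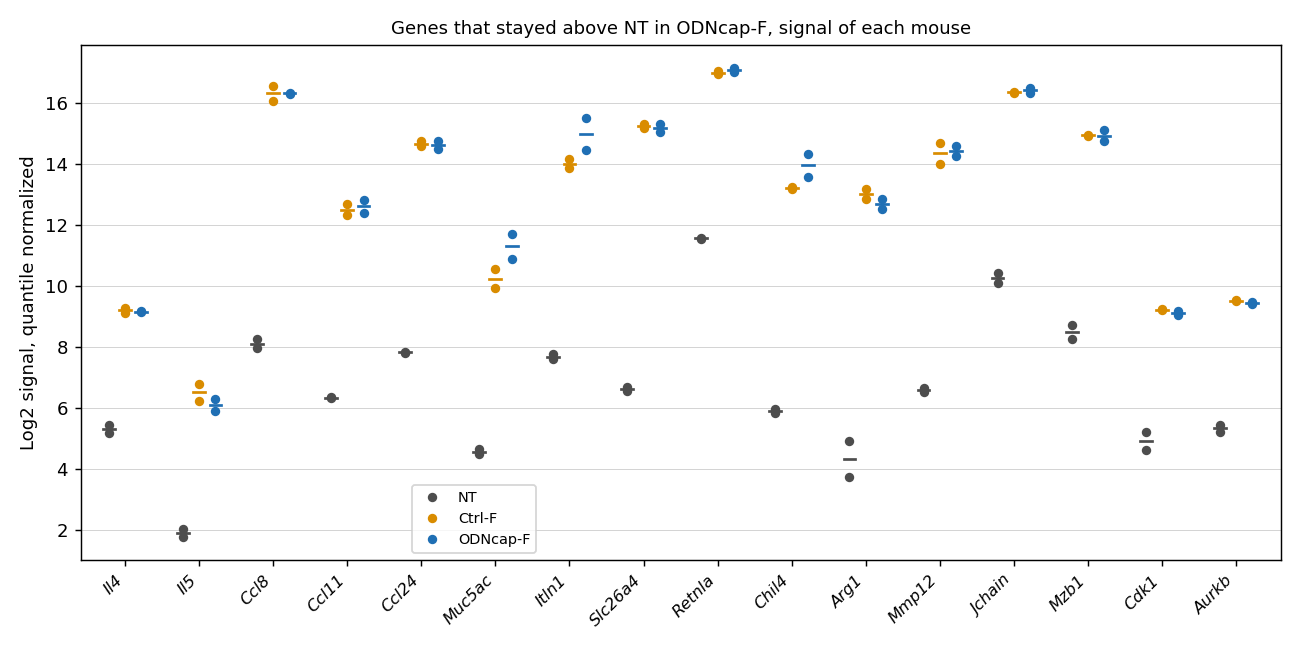
Log2 signal after quantile normalization of each NT (grey), Ctrl-F (orange) and ODNcap-F (blue) mouse for 16 genes called higher in ODNcap-F than in NT, with 1 point per mouse and a bar at the mean of the 2 mice. For Il4 the NT mice sit at 5.16 and 5.42 and the ODNcap-F mice at 9.16 and 9.14, and for Muc5ac and Itln1 both ODNcap-F mice sit above both Ctrl-F mice.

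Macrophage and dendritic cell genes were higher in 17 of 23, lower in 1 and within 2-fold in 4, with a median of 2.51 in ODNcap-F and 2.69 in Ctrl-F. Arg1, the arginase of alternatively activated macrophages, stood at 12.86 and 12.53 in ODNcap-F and at 4.90 and 3.71 in NT, where 1 of 2 mice was well above background. Mmp12, macrophage elastase, rose by 7.85, and Spp1 (osteopontin) and Trem2, of lipid-handling macrophages, rose by 4.88 and 4.08. The chains of complement C1q, which macrophages make, rose by 2.75 for C1qa, 2.85 for C1qb and 2.81 for C1qc. Marco, a scavenger receptor of resident alveolar macrophages, was the member called lower, at 10.20 and 10.04 in NT, 6.41 and 6.36 in ODNcap-F and 6.73 and 5.55 in Ctrl-F. Cd209a and Cd207, lectins of dendritic cells, lay within 2-fold at -0.10 and 0.22. Of 12 genes of arginine and nitric oxide metabolism, 7 were higher, 1 lower and 4 within 2-fold, with a median of 1.06 against 1.08 in Ctrl-F. Nos2, inducible nitric oxide synthase, was at 8.52 and 8.36 in NT, 11.28 and 10.52 in ODNcap-F and 11.52 and 11.99 in Ctrl-F, so that both ODNcap-F mice lay between the other groups. Nos3, the endothelial enzyme, fell by 1.06, but was not called without NT mouse 1 or ODNcap-F mouse 1, at -0.93 and -0.89, which left no gene of the list called lower.

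Matrix metalloproteinases and inhibitors were higher in 8 of 16, lower in 2 and within 2-fold in 4, with a median of 0.67 against 0.34 in Ctrl-F. Beside Mmp12, Mmp13 rose by 5.47 and the inhibitor Timp1 by 5.09, while Timp3 and Timp2 fell by 1.73 and 1.04. Timp2 was not called without NT mouse 1 or ODNcap-F mouse 1, at -0.97 and -0.99, and Timp3 was then the 1 gene of the list called lower. Nor was Timp2 called after scaling to the 75th percentile, at -0.75, or over the mean of its probes, at -0.47. The gelatinases Mmp2 and Mmp9 lay within 2-fold, at -0.28 and -0.03. Eicosanoid synthesis genes were higher in 7 of 16, lower in 2 and within 2-fold in 6, with a median of 0.70 against 0.66. Alox12e and Alox15, which oxygenate arachidonic acid, rose by 5.77 and 4.69, Alox12e with 1 of 2 NT mice well above background. Alox12 fell by 2.21, and Ptges, the inducible prostaglandin E synthase, lay within 2-fold at -0.14 on its brightest probe but differed by 0.99 over the mean of its probes, which left that range. MHC class II presentation genes were higher in 8 of 13, lower in none and within 2-fold in 2, with a median of 1.27 against 1.24. The peptide exchange factors H2-Oa and H2-Ob, found mostly in B cells, rose by 2.33 and 2.06, and the beta chain H2-Ab1, already at 15.70 and 15.55 in NT, differed by 0.67. The interval of H2-Ab1 left the 2-fold range after scaling to the 75th percentile, at 0.97, and over the mean of its probes, at 0.92. Among Fc receptors and antibody transport genes, 6 of 11 were higher, none lower and 4 within 2-fold, with a median of 1.06 against 1.18. Fcgr2b, the inhibitory IgG receptor, was at 8.45 and 8.49 in NT and 12.06 and 11.91 in ODNcap-F, and Fcer2a, the low-affinity IgE receptor, rose by 1.84. Fcgrt, the neonatal Fc receptor, lay within 2-fold at 0.16.

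B cell and plasma cell genes were called higher in 13 of 18, lower in none and lay within 2-fold in 4, with a median of 2.01 against 2.12 in Ctrl-F. Jchain, the joining chain of IgA and IgM, was at 10.43 and 10.09 in NT, 16.33 and 16.50 in ODNcap-F and 16.35 and 16.34 in Ctrl-F. Mzb1, a chaperone of antibody assembly, rose by 6.43 and Tnfrsf17, the survival receptor of plasma cells, by 5.05. The B cell surface genes Ms4a1 and Cd79b rose by 2.09 and 1.93. Prdm1 and Xbp1, transcription factors of plasma cells, and Sdc1, a surface protein of plasma cells and epithelium, lay within 2-fold at 0.80, 0.61 and -0.14. The interval of Xbp1 left that range after scaling to the 75th percentile, at 0.91. That of Prdm1 left it in a fit of the 2 groups alone and without NT mouse 1 or ODNcap-F mouse 1. In the unfolded protein response and secretory pathway 9 of 18 genes were higher, none lower and 5 within 2-fold, with a median of 0.98 against 0.97. Ern2, a stress sensor of mucus-secreting epithelium, rose by 5.71 and the chaperone partner Sdf2l1 by 2.99, whereas Atf4, a general stress factor, lay at -0.02.

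T cell and T helper lineage genes were higher in 10 of 20, lower in 1 and within 2-fold in 8, with a median of 0.90 against 0.92 in Ctrl-F. Il10, Il21 and Ctla4, none well above background in NT, were at least 6.38-fold, 10.2-fold and 5.31-fold higher, and the inhibitory receptor Pdcd1 rose by 4.69. Foxp3, the factor of regulatory T cells, rose by 1.18. After normexp Ctla4 and Foxp3 were not called, at 0.96 and 0.50. The lowest log2 differences of Il10 and Il21 under any alternative were 1.08 and 1.52. Cd3d and Cd3e, chains of the T cell receptor complex, lay within 2-fold at 0.49 and 0.44. Cd3e was at 10.62 and 10.28 in NT and 11.05 and 10.73 in ODNcap-F, without overlap. Neither interval stayed inside 2-fold without NT mouse 1 or ODNcap-F mouse 2, nor did that of Cd3d in a fit of the 2 groups alone. Cytotoxic lymphocyte genes were higher in 3 of 13, lower in 2 and within 2-fold in 5, with a median of -0.16 against -0.34, and after normexp none was called either way. Ifng, which encodes interferon gamma, had levels of 6.47 and 6.18 in NT, 7.57 and 7.59 in ODNcap-F and 7.37 and 7.32 in Ctrl-F. Both ODNcap-F mice lay above these 4 and at or below the Cap-F mice, which stood at 7.84 and 7.59. The difference from NT was 1.26 (SE 0.13, adjusted p 0.000494). Gzmb, a granule protease of killer cells, lay within 2-fold at -0.16, and the natural killer receptors Klrb1c and Ncr1 fell by 1.11 and 1.08. Klrb1c was not called without NT mouse 1 or ODNcap-F mouse 2, at -0.96 and -0.92, and Ncr1 was not called without ODNcap-F mouse 2, at -0.89.

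The cell cycle and DNA replication list was called almost as a whole, with 29 of 30 genes called higher, 1 unsettled and a median of 3.01 in ODNcap-F against 3.17 in Ctrl-F. Each alternative tried for the list also gave 29. Cdk1, the kinase that drives entry into mitosis, was at 4.61 and 5.21 in NT, 9.17 and 9.05 in ODNcap-F and 9.20 and 9.24 in Ctrl-F. Both ODNcap-F mice were far above NT and just below Ctrl-F. Aurkb, a kinase of chromosome segregation, and Birc5 (survivin), of the same complex, rose by 4.11 and 3.67, and Rrm2, a subunit of ribonucleotide reductase, by 3.65. Mki67, the Ki-67 antigen, rose by 3.60 and the replication factor Pcna by 1.05. The unsettled member was the helicase subunit Mcm4, at 0.90. Of 25 promoters found for 24 of the genes, 22 (88.0%) held the motif CCAAT on either strand, against 37.4% of all promoters and 37.2% of those of tested genes, and 11 (44.0%) held TTTGAA, against 17.9% and 13.0%. The motif CCAAT was also in 77.8% of the 18 promoters of the circadian clock list, so that the letters are not particular to the cell cycle list. Nor is TTTGAA, found in 37.5% of chitinase-like and resistin-like promoters (3 of 8) and 36.8% of CC chemokine promoters (7 of 19). It was in 11.8% of type 2 cytokine promoters, and in 0 of those of the goblet cell and clock lists. The promoters of Cdk1 and Rrm2 are shown as members of a list that lay above NT almost as a whole. Capitals mark CCAAT or its complement ATTGG and TTTGAA. In Cdk1, at chr10:69352863-69353162 on the minus strand, ATTGG begins 208, 80 and 48 bases and TTTGAA 71 and 15 bases before the start. In Rrm2, at chr12:24708004-24708303 on the plus strand, 1 match begins 50 bases before it.
Cdk1: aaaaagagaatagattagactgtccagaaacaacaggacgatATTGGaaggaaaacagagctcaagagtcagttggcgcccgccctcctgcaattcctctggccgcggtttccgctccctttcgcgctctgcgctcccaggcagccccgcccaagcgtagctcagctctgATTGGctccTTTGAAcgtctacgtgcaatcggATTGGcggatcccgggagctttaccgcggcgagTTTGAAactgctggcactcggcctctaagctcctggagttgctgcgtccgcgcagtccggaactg
Rrm2: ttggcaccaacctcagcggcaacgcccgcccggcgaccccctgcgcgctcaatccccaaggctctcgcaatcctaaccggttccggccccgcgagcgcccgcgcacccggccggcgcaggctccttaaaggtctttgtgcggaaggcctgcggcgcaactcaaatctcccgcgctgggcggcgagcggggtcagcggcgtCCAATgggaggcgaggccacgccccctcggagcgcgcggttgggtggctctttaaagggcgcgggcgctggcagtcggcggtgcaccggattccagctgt

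Over all genes, the 10 largest rises among those well above background in both groups were Gm15056, Slc26a4, Ccl8, Chil4, Mmp12, AA467197, Fxyd4, Itln1, Ccl24 and Muc5ac, with differences between 6.74 and 9.31. Gm15056 led them, at 5.32 and 4.87 in NT and 14.50 and 14.31 in ODNcap-F. Fxyd4, a regulator of the sodium pump, was at 6.28 and 6.10 in NT and 13.63 and 13.71 in ODNcap-F. For all 10 the groups did not overlap. Among genes not well above background in NT, Retnlb had the largest bound. Duoxa1, the maturation factor of the hydrogen peroxide producing oxidase Duox1, was at least 132-fold higher. The RNA helicase Ddx4 followed at 81.3-fold, the protease Capn9 at 79.6-fold and Speer2 at 73.1-fold. The lowest log2 differences under any alternative were 5.51 for Retnlb, 4.55 for Duoxa1, 3.86 for Ddx4, 3.73 for Capn9 and 3.8 for Speer2. On the same scale these lie below the bounds.

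Genes of the gas exchange surface lay below NT. Of 13 alveolar type 1 cell genes 11 were called lower and 2 lay within 2-fold, with a median of -1.34 in ODNcap-F and -1.46 in Ctrl-F, where 11 were lower too. Hopx, a transcriptional cofactor of these cells, had levels of 15.20 and 15.33 in NT, 13.50 and 13.56 in ODNcap-F and 13.35 and 13.48 in Ctrl-F. It fell by 1.73 (SE 0.09, adjusted p 4.9e-05), and the water channel Aqp5 and the endothelial growth factor Vegfa fell by 1.43 and 1.80. Ager and Pdpn, surface proteins of the same cells, lay within 2-fold at -0.75 and -0.29. The interval of Ager left that range without any 1 NT or Cap-F mouse, without ODNcap-F mouse 2 and over the mean of its probes, at -0.98. In lung endothelium 12 of 19 genes were lower, none higher and 3 within 2-fold, with a median of -1.12 against -1.13. Tmem100, a target of bone morphogenetic protein signaling, was at 12.75 and 12.74 in NT and 10.45 and 10.68 in ODNcap-F. The receptors Flt1 and Tek, which bind vascular growth factors and angiopoietins, fell by 1.80 and 1.95, and Ednrb, an endothelin receptor, by 1.69. Vwf, von Willebrand factor of larger vessels, did not move with them, at 14.25 and 14.37 in NT and 14.24 and 14.41 in ODNcap-F.

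Club cell genes divided. Of 15 tested, 6 were lower, 3 higher and 3 within 2-fold, with a median of -0.49 in ODNcap-F and -1.07 in Ctrl-F, where 7 were lower and 1 higher. Scgb3a2, a secretoglobin of distal airway cells, was at 16.79 and 17.10 in NT, 13.00 and 13.46 in ODNcap-F and 12.95 and 12.70 in Ctrl-F, and fell by 3.72. Both ODNcap-F mice lay below the NT mice and above the Ctrl-F mice, and the Cap-F mice stood at 12.54 and 13.04. Scgb1a1, the defining secretoglobin of the club cell, was at the top of the measured range in all groups, at 17.64 in both NT mice and 17.60 in both ODNcap-F mice, where quantile normalization leaves little room for a difference. Bpifb1, an antimicrobial protein of mucous cells, rose by 4.93, and Scgb3a1 and Reg3g were the other genes called higher. Scgb3a1, a secretoglobin of larger airways, was at 11.80 and 14.54 in NT and 15.40 and 16.02 in ODNcap-F (adjusted p 0.0467), and was not called when any 1 of the 8 mice other than NT mouse 2 was left out. Its difference of 2.54 was 1.18 without NT mouse 1. Without NT mouse 1 or ODNcap-F mouse 2 only 1 gene of the list was called higher. In the cytochrome P450 list 7 of 12 genes were lower and 3 higher, with a median of -1.43 against -1.90, where Ctrl-F had 9 lower and 3 higher. Cyp2f2, of club cells, fell by 1.71, Cyp4b1 by 2.18 and Cyp2b10 by 2.04, while Cyp4f18, of leukocytes, rose by 3.16.

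Airway ion channels and transporters were higher in 3 of 13, lower in 3 and within 2-fold in 4, with a median of -0.35 against -0.54. Beside Slc26a4, the water channel Aqp3 rose by 2.38, while Scnn1g and Scnn1a, subunits of the epithelial sodium channel, fell by 1.44 and 1.24. Over the mean of its probes Scnn1a differed by -0.79 and was not called. The chloride channels Cftr and Ano1 lay within 2-fold, at 0.00 and -0.10. Of 17 epithelial junction genes 9 lay within 2-fold, a share below the 62.2% of all genes, with 1 higher and 3 lower and a median of -0.40 against -0.75. For 13 of them both ODNcap-F mice lay below both NT mice, against 48.1% of all genes. Cdh1, E-cadherin, was at 12.09 and 12.26 in NT and 12.04 in both ODNcap-F mice. Ocln and Cldn18, of tight junctions, fell by 1.10 and 1.12, and without ODNcap-F mouse 2 Ocln differed by -0.96 and was not called. Cldn4, the member called higher, differed by 1.12, and by 0.98 without NT mouse 2, when it was not called. After normexp Ocln, Cldn18 and Cldn4 were not called, at -0.93, -0.99 and 0.46. Receptors for bronchomotor agents and mediators divided evenly, with 5 of 16 higher, 5 lower and 3 within 2-fold and a median of 0.03 against 0.09. Ptgdr, a prostaglandin D2 receptor, was at least 7.4-fold higher, with a log2 difference as low as 1.44 under the alternatives. Hrh1, the histamine H1 receptor, rose by 1.93, while Ptgdr2, the other prostaglandin D2 receptor, differed by -0.28. After normexp Hrh1 differed by 0.85 and was not called, and the interval of Ptgdr2 left the 2-fold range when NT mouse 1, ODNcap-F mouse 1 or ODNcap-F mouse 2 was absent. Without NT mouse 1 or ODNcap-F mouse 1, 3 genes of this list were called lower.

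A list not defined by a cell type also lay mostly below NT. Circadian clock genes were lower in 10 of 15, higher in none and within 2-fold in 3, with a median of -1.43 in ODNcap-F and -1.71 in Ctrl-F, where 10 were lower too. Nr1d1, the nuclear receptor REV-ERB alpha, was at 10.63 and 10.01 in NT, 8.01 and 8.18 in ODNcap-F and 8.05 and 8.27 in Ctrl-F. Dbp, Hlf and Ciart, whose transcripts cycle over the day, fell by 1.66, 1.84 and 1.80, and Per2, Per3 and Cry2 by 1.55, 1.45 and 1.60. Arntl, the gene for BMAL1, lay within 2-fold at -0.01, as did Cry1 at -0.22. The time of day at which each mouse was killed is not given in the sources used here. Of the 18 promoters of the clock list 6 (33.3%) held CACGTG, the E-box that BMAL1 and CLOCK bind and which reads the same on both strands, against 7.15% of all promoters, 9.02% of those of tested genes and 6.53% of those of genes called lower. TTANGTAA, after the site of DBP and HLF, was in 5.56% of the clock promoters and 2.32% of all. The promoter of Ciart is shown because the gene fell and its window, chr3:95882179-95882478 on the minus strand, holds 3 copies in capitals, which begin 116, 58 and 44 bases before the start. The promoters of Nr1d1, Dbp and Hlf held none in this window.
Ciart: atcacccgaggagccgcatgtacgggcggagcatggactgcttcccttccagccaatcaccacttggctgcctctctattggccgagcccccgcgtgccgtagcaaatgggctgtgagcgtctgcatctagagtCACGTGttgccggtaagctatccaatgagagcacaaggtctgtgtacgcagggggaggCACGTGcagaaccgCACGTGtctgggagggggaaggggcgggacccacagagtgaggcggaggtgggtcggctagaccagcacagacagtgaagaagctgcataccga

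Red blood cell genes were lower in 6 of 9 and within 2-fold in 3, with a median of -1.77 against -1.44. Hbb-b1 and Alas2 fell by 2.23 and 2.11, while the alpha globins Hba-a1 and Hba-a2, near-identical copies near the top of the measured range, differed by -0.16 and -0.18. Over the mean of its probes Hba-a1 differed by -0.77 and its interval left the 2-fold range. Glucocorticoid and metallothionein genes were lower in 5 of 13, higher in 1 and within 2-fold in 3, with a median of -0.91 against -0.86, and 2 were called lower without NT mouse 1. Pdk4, a kinase that restrains glucose oxidation, fell by 1.45, and Mt2, a metallothionein, rose by 1.34. Of 14 heat shock genes 1 was lower and 7 lay within 2-fold, against 62.2% of all genes, with a median of -0.53 against -0.28. Hspb1 was that gene, at 15.37 and 15.89 in NT and 13.19 and 14.01 in ODNcap-F, and 5 genes of the list were called lower without ODNcap-F mouse 2. Immediate early genes were higher in 3 of 13, lower in 2 and within 2-fold in 4, with a median of -0.16 against -0.22. Egr2 and Atf3, which activated myeloid cells express, rose by 3.37 and 2.95 and Klf4 fell by 1.45, while Junb and Jund lay at 0.28 and -0.29. Without NT mouse 2, 1 gene of this list was called lower. Among neutrophil and acute phase genes 6 of 16 were higher, 3 lower and 3 within 2-fold, with a median of 0.11 against 0.26. Saa3, an acute phase protein of epithelium and macrophages, was at 8.79 in both NT mice, 15.17 and 14.72 in ODNcap-F and 14.46 and 14.34 in Ctrl-F. Csf3r, the receptor that marks neutrophils, lay within 2-fold at -0.62, and Camp, of neutrophil granules, fell by 2.24, but differed by -2.00 and was not called without ODNcap-F mouse 2. Ngp, of the same granules, was well above background in 1 of 2 ODNcap-F mice and differed by -2.95. Without ODNcap-F mouse 2, 1 gene of this list was called lower.

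The 10 largest falls among genes well above background in both groups lay between -4.97 and -3.35 and included Pon1, Fabp1, Krtap17-1, Fpr1, Marco, Scgb3a2, Gria1, Faim2 and Kcna6. Pon1, a paraoxonase, was at 11.12 and 11.29 in NT, 6.29 and 6.17 in ODNcap-F and 5.52 and 5.73 in Ctrl-F (difference from NT -4.97, SE 0.10, adjusted p 5.5e-06). Fabp1, a fatty acid binding protein, and Fpr1, a receptor for formyl peptides, fell by 4.45 and 4.01. The groups did not overlap for any of the 10. Of genes not well above background in ODNcap-F, Wfdc16 was at least 10.7-fold lower, Il22ra2 8.38-fold, Cyp2c23 5.73-fold, Upk3a 5.66-fold and Ppp2r2c 5.28-fold. After normexp Upk3a and Ppp2r2c were not called, at -0.99 and -0.97. The smallest falls under any alternative were -1.73 for Wfdc16, -1.74 for Il22ra2 and -1.06 for Cyp2c23 on the log2 scale.

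**Figure D3:**
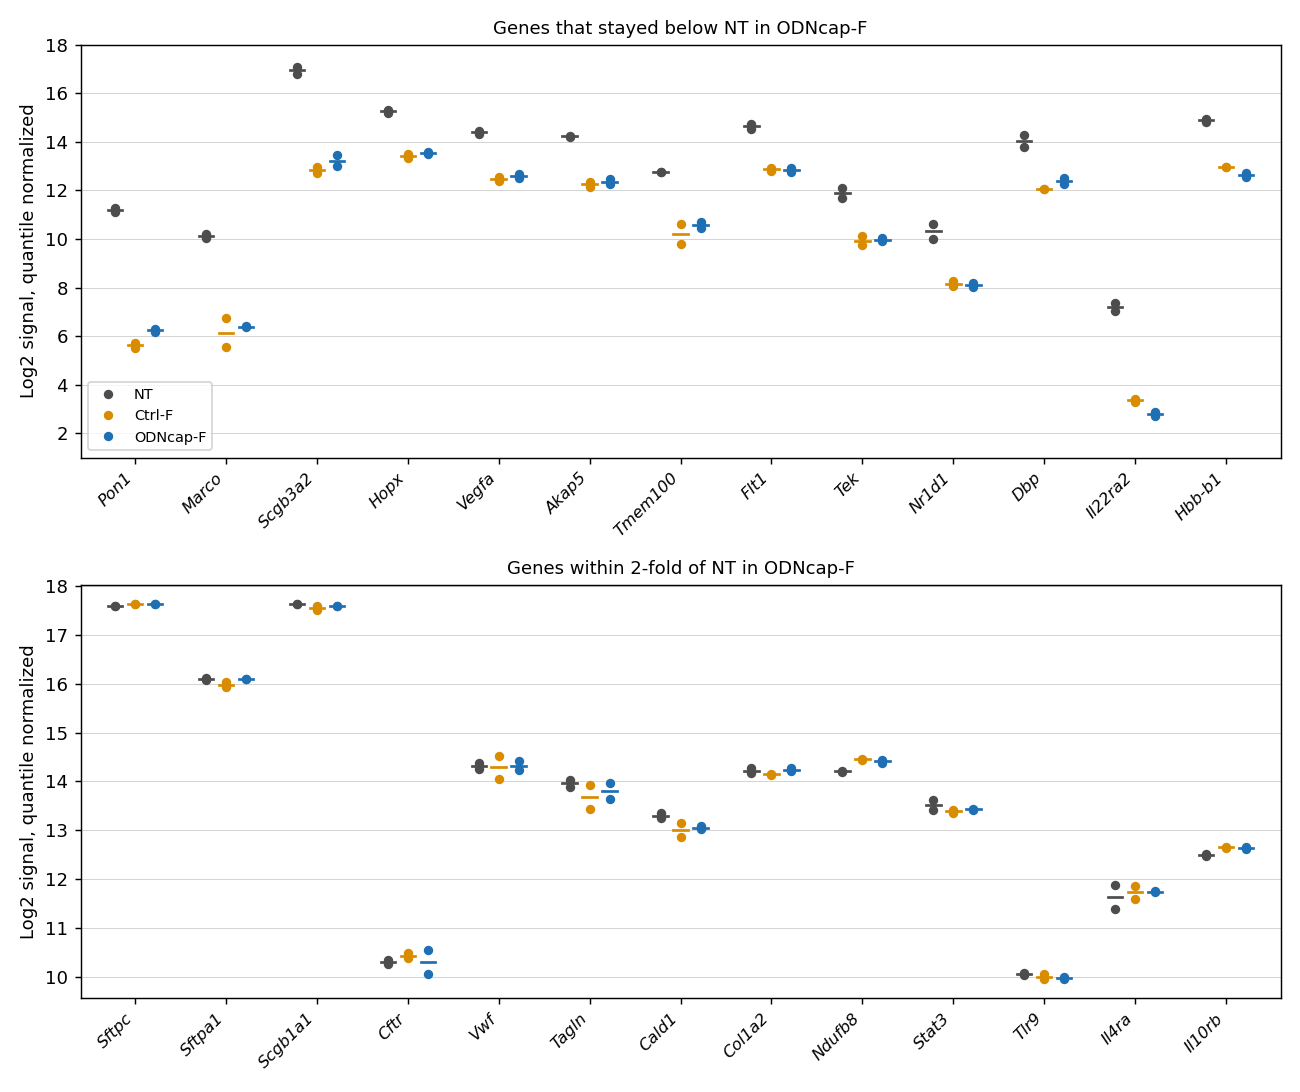
Log2 signal after quantile normalization of each NT (grey), Ctrl-F (orange) and ODNcap-F (blue) mouse, with 1 point per mouse and a bar at the mean of the 2 mice, for 13 genes called lower in ODNcap-F than in NT (top) and 13 genes within 2-fold of NT (bottom). Hopx sits at 15.20 and 15.33 in NT and 13.50 and 13.56 in ODNcap-F, while Vwf sits at 14.25 and 14.37 in NT and 14.24 and 14.41 in ODNcap-F. Sftpc and Scgb1a1 sit at the top of the measured range.

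Among lists with few called genes was the respiratory chain, where 22 of 22 genes of complexes I to III lay within 2-fold, against 62.2% of all genes, with a median of 0.29 in both ODNcap-F and Ctrl-F. Ndufb8, a subunit of complex I, was at 14.22 and 14.20 in NT and 14.44 and 14.39 in ODNcap-F. Its groups did not overlap, but the difference was 0.20, with a 95% interval of 0.05 to 0.35. Alveolar type 2 cell and surfactant genes lay within 2-fold in 12 of 15, with a median of -0.46 against -0.40. Surfactant protein A gene Sftpa1 was at 16.11 and 16.08 in NT and 16.10 and 16.11 in ODNcap-F, with a difference of 0.01 and an interval of -0.18 to 0.20. Sftpd differed by 0.45 and Sftpb by -0.46, although the mean of the Sftpb probes differed by -1.10. Nkx2-1, the lung lineage factor, differed by -0.80, and its interval left the 2-fold range when any NT, Cap-F or ODNcap-F mouse was left out. The member called higher was Il33. Collagen and matrix genes lay within 2-fold in 12 of 16, with 2 higher and a median of 0.22 against 0.09. Col1a2 of type I collagen was at 14.17 and 14.28 in NT and 14.22 and 14.27 in ODNcap-F, while Col3a1 of type III collagen rose by 1.47 and the matrix protein Tnc by 1.76. After normexp Tnc differed by 0.86 and was not called. Smooth muscle contractile genes were within 2-fold in 8 of 13 and unsettled in the other 5, a share within 2-fold close to that of all genes, with none called and a median of 0.00 against -0.28. The actin-binding Tagln was at 13.89 and 14.03 in NT and 13.64 and 13.97 in ODNcap-F, and Cald1, which encodes caldesmon, differed by -0.24.

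Toll-like receptors and adaptors lay within 2-fold in 10 of 17, close to the 62.2% of all genes, with 5 higher, none lower and a median of 0.55 against 0.60 in Ctrl-F. Tlr9, the receptor of the oligonucleotide in the feed, had a mean of 9.98 ± 0.03 (SD, n = 2) in ODNcap-F, against 10.08 and 10.03 in NT. The Ctrl-F mice stood at 10.06 and 9.94. Its difference was -0.08, with an interval of -0.26 to 0.11. The adaptor Myd88 lay at 0.28 and Tlr4 at 0.55, while Unc93b1, the chaperone that carries endosomal receptors including TLR9, rose by 1.26 and Tlr1 by 1.49. Without NT mouse 2, 3 genes of the list were called higher. Complement genes lay within 2-fold in 10 of 18, a share below the 62.2% of all genes. Of the 18, 4 were higher and none lower, with a median of 0.14 against 0.07. C3, the central component, rose by 1.54 and Cfi, its inactivating protease, by 4.74, while C4b lay at 0.04. In the IL-22 and Reg3 pathway 4 of 7 genes lay within 2-fold, again a share below that of all genes. In this list 1 gene was higher and 1 lower, with a median of 0.15 against 0.16. The receptor chain Il22ra1 had a mean of 5.04 ± 0.06 (SD, n = 2) in NT and was at 5.29 and 5.46 in ODNcap-F, a difference of 0.33, and Extl3, reported to act as a receptor of Reg3 proteins, was at -0.62. Il22ra2, the soluble decoy receptor, was at 7.01 and 7.36 in NT and not well above background in any ODNcap-F or Ctrl-F mouse. Reg3g, an antimicrobial lectin of mucosal epithelium, was at 6.20 and 9.12 in NT and 12.46 and 14.47 in ODNcap-F. Both groups spread widely, and the difference of 5.80 (SE 1.52, adjusted p 0.0186) was not called without NT mouse 1, at 4.34, or without ODNcap-F mouse 2, at 4.80. The Ctrl-F mice, at 11.38 and 11.63, also lay above both NT mice. The Cap-F mice stood at 8.94 and 12.82, the higher of them above ODNcap-F mouse 1.

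The remaining lists each held a larger share of unsettled genes than the 17.1% of all genes. Of 16 cardiac muscle genes that the study singled out on these arrays, 13 were unsettled, 2 lower and 1 within 2-fold, with a median of -0.64 in ODNcap-F. In Ctrl-F 10 were lower, with a median of -2.64. Heart muscle sleeves surround the pulmonary veins of the mouse, so that whole lung holds such transcripts. Myh6, the alpha myosin heavy chain, was at 13.83 and 12.62 in NT, 12.05 and 12.85 in ODNcap-F and 9.06 and 9.92 in Ctrl-F. The ODNcap-F mice overlapped the NT mice and lay above both Ctrl-F mice, while the Cap-F mice stood at 8.87 and 12.60. The difference from NT was -0.77 with an interval of -3.68 to 2.13. Tnnt2 and Myl7 had the same arrangement, at -0.63 and -0.64. These intervals allow a level several fold lower or higher than NT. Cox8b and Fabp3, of oxidative muscle metabolism, were the genes called lower, at -1.70 and -1.55. Without NT mouse 1 or ODNcap-F mouse 1 neither was called, at -1.49 and -1.40 for Cox8b and -1.18 and -1.22 for Fabp3. Nor was Cox8b called without NT mouse 2 or ODNcap-F mouse 2, at -1.90 and -1.99. In the direct comparison of ODNcap-F with Ctrl-F the 16 genes had a median of 1.68 and none was called. Of the 16, 11 passed an unadjusted p of 0.05 in limma. The study picked these genes for higher levels in ODNcap-F than in Ctrl-F, Cap-F or both on these same arrays. Their median and small p values are therefore partly built into the list and give no separate support.

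Other cardiac muscle genes were unsettled in 16 of 23, with 3 lower, 1 higher and 3 within 2-fold and a median of -0.37 against -1.30. The members called lower, Myh7, Tbx5 and Ryr2, are also expressed outside the heart, and the member called higher, Corin, is a protease that rose by 5.43. Ryr2 was not called without NT mouse 1 or ODNcap-F mouse 1, at -0.91 and -0.82, nor after normexp, at -0.43, or over the mean of its probes, at -0.76. Myl3, of ventricle and slow muscle, was unsettled, and the ventricular genes Myl2 and Irx4 and the fast skeletal myosins Myh4 and Myh1 were not tested. Adipocyte and lipid droplet genes were unsettled in 6 of 15, with 2 higher, 2 lower and 5 within 2-fold and a median of -0.31 against -0.63. Adipoq, the fat cell hormone adiponectin, was at 7.09 and 6.46 in NT, 6.03 and 7.12 in ODNcap-F and not well above background in Ctrl-F, the same order of groups as for Myh6. Cidec, a lipid droplet protein, was at 10.80 and 10.25 in NT and 7.44 and 8.38 in ODNcap-F. It fell by 2.61, but was not called without NT mouse 1, NT mouse 2 or ODNcap-F mouse 1, at -2.34, -2.89 and -2.14. Without any 1 of these mice no gene of the list was called lower. Adipoq turned from -0.20 to 0.11 without NT mouse 1 and to 0.35 without ODNcap-F mouse 1. Not all heart and fat markers shared this order. Nppa, the gene for atrial natriuretic peptide, was at 6.73 and 6.05 in NT and 7.26 and 8.26 in ODNcap-F, above both NT mice, and Cidec was below both. The part of heart and fat tissue in the other lists was not tested.

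Motile cilium genes lay within 2-fold in 8 of 16, a share below the 62.2% of all genes. In ODNcap-F 1 was lower and 7 were unsettled, with a median of -0.38. In Ctrl-F 4 were lower and none lay within 2-fold, with a median of -0.91. Foxj1, the master factor of ciliated cells, was at 10.48 and 10.51 in NT, 10.22 and 10.73 in ODNcap-F and 10.10 and 9.90 in Ctrl-F. Its interval, -0.73 to 0.69, left the 2-fold range when any NT or ODNcap-F mouse was left out. Cfap126 lay at -0.15 and Tppp3, a tubulin-binding protein, fell by 1.63. Of 16 genes of this list none was called in ODNcap-F against Ctrl-F. Interferon-stimulated genes were unsettled in 11 of 18, with 2 higher, 5 within 2-fold and a median of 0.43 against -0.01. Isg15, a ubiquitin-like protein, was at 11.55 and 11.53 in NT but 11.75 and 12.93 in ODNcap-F, and Ifit1 was at 8.39 and 8.36 in NT but 7.49 and 9.03. In both, ODNcap-F mouse 2 stood above ODNcap-F mouse 1 by more than the NT mice differed. Without ODNcap-F mouse 1, Isg15 differed by 1.39 and was called, Ifit1 turned from -0.12 to 0.65, and 5 genes of the list were called higher. Cxcl10 and Oas1a were the members called higher, at 2.94 and 1.30.

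**Figure D4:**
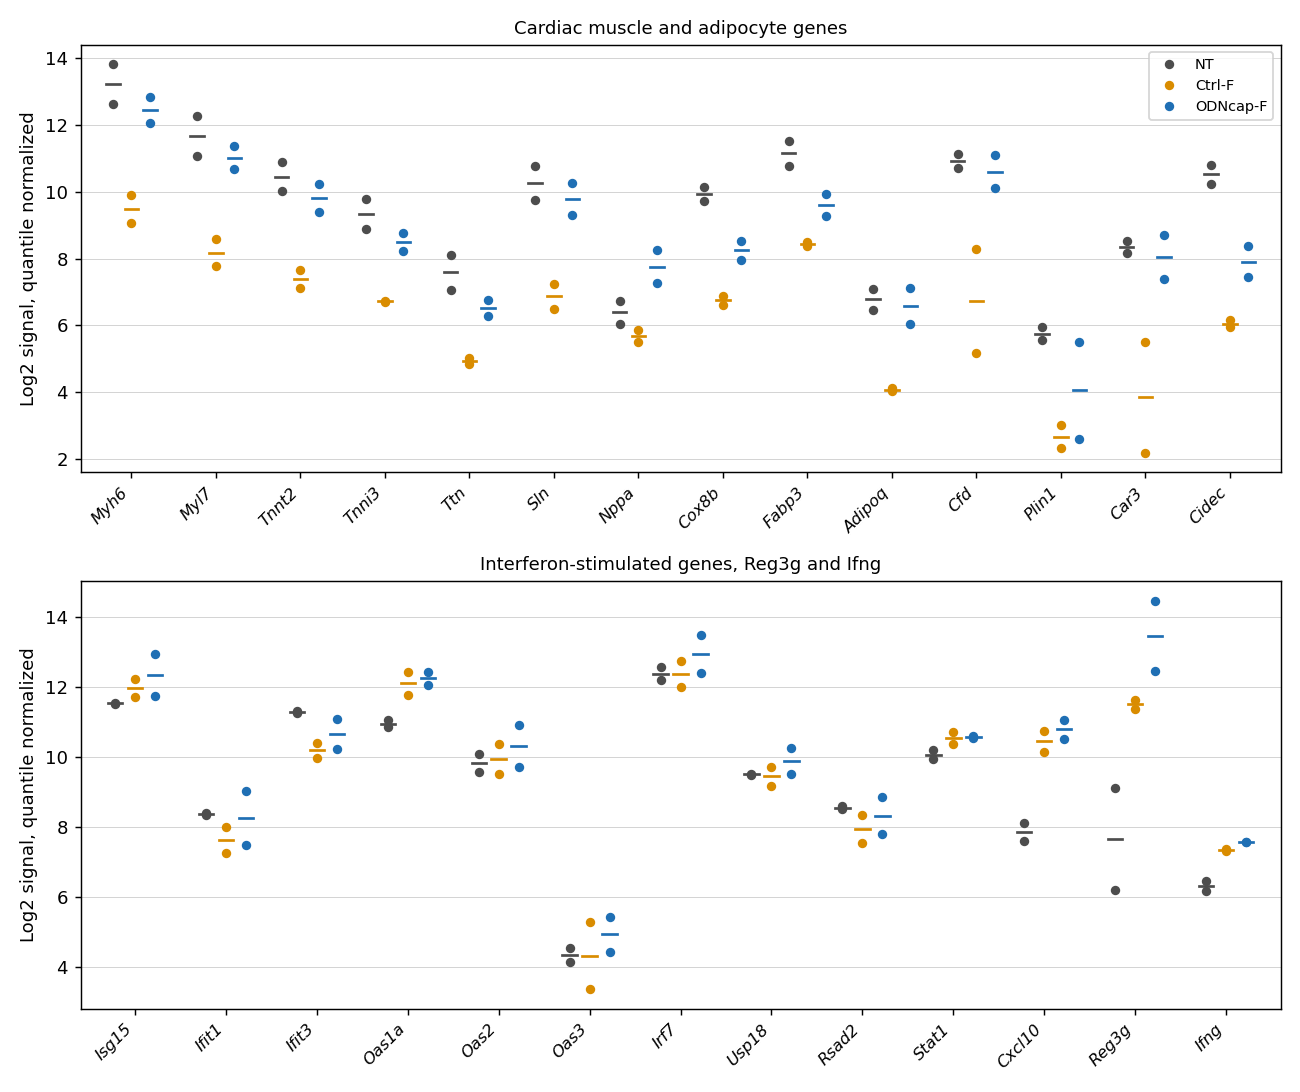
Log2 signal after quantile normalization of each NT (grey), Ctrl-F (orange) and ODNcap-F (blue) mouse, with 1 point per mouse and a bar at the mean of the 2 mice, for cardiac muscle and adipocyte genes (top) and for interferon-stimulated genes, Reg3g and Ifng (bottom). Myh6 spans 12.62 to 13.83 in NT and 12.05 to 12.85 in ODNcap-F, with Ctrl-F below at 9.06 and 9.92, and for Isg15 the ODNcap-F mice stand apart at 11.75 and 12.93.

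ODNcap-F was also compared directly with Ctrl-F, which differs from it by the feed alone, although the slide rows differ as well. No gene of 28992 was called by limma (0%), and the lowest adjusted p was 0.0881. Without adjustment, 190 genes passed a p of 0.05 together with a difference over 2-fold, and the local-pooled-error test called 133. The interval lay within 2-fold for 25807 genes (89%). Among the lists above NT, the plot of list medians shows both groups close together for chemokines, macrophages, eosinophils, B cells and the cell cycle. It shows the widest gaps for the cardiac genes of the study, for goblet cells, other cardiac muscle, club cells and motile cilia. The study chose its cardiac genes for higher levels in ODNcap-F on these arrays, so their gap is partly built in. For no list did a gene pass the test of the difference between ODNcap-F and Ctrl-F.

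**Figure D5:**
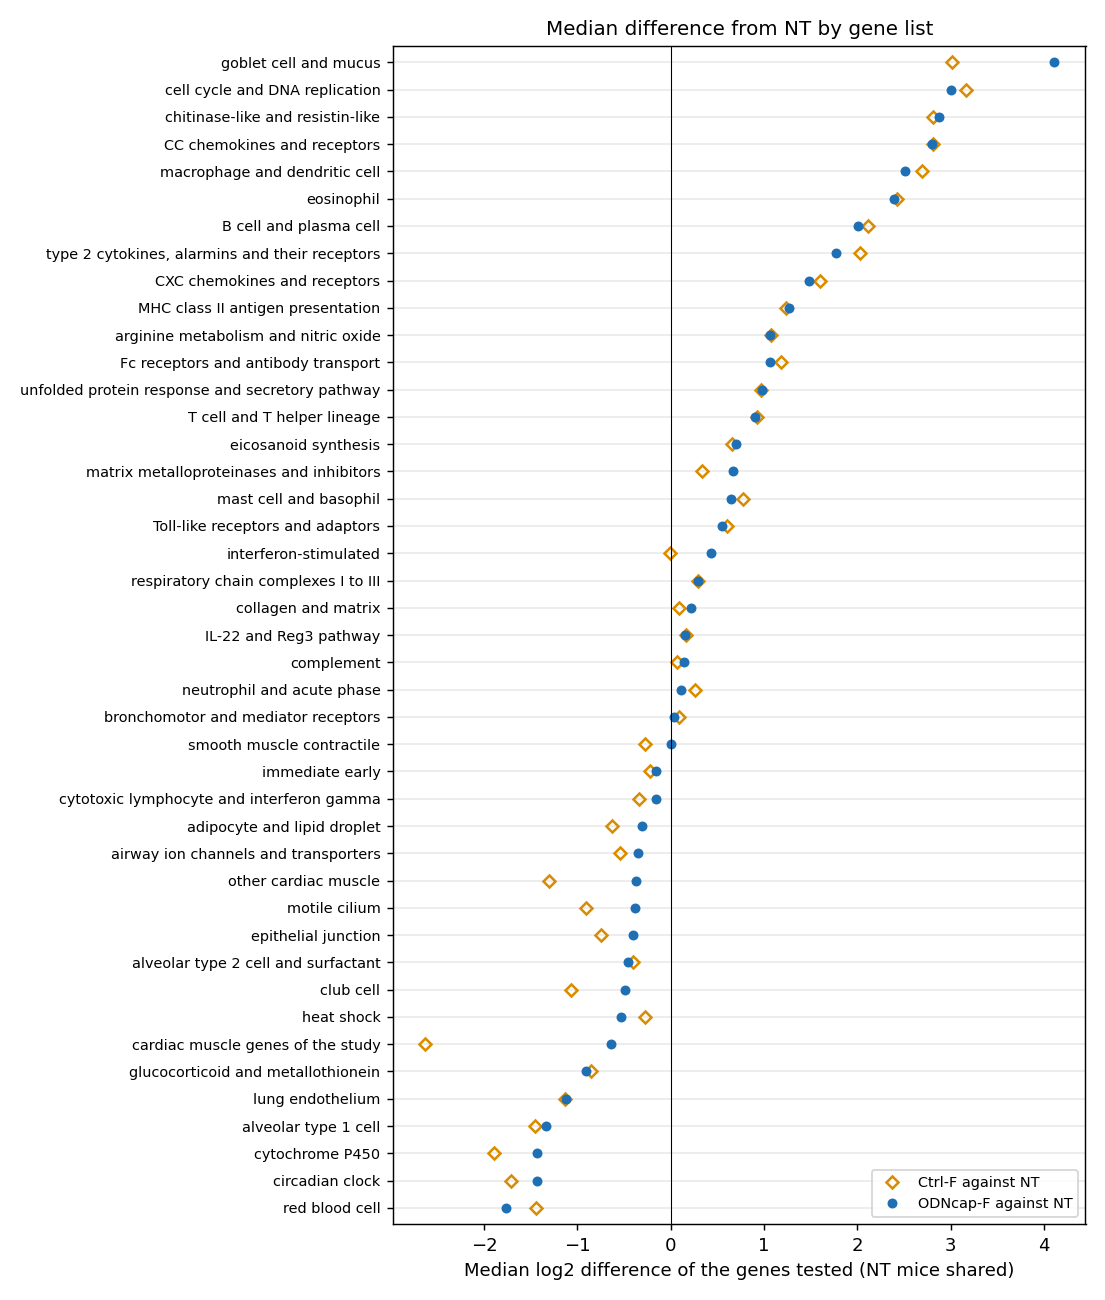
Median log2 difference from NT over the tested genes of each list, for ODNcap-F (blue circles) and Ctrl-F (orange diamonds), which share the NT mice, with a line at 0. The medians of the cell cycle list are 3.01 and 3.17 and those of lung endothelium -1.12 and -1.13, while those of the cardiac genes of the study are -0.64 and -2.64.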

How the data were processed

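Whole-lung RNA of 8 mice was hybridized to single-color Agilent mouse arrays, 1 array per mouse and 2 mice per group. Each deposited scanner file holds the processed signal intensity per spot, which the authors obtained with Agilent Feature Extraction 11.0. The deposited table of log2 values, which holds 32312 probes, was used as an alternative. Control spots and 792 outlier values were left out, and log2 intensities were quantile normalized over 8 arrays, which forces equal distributions and flattens differences at the top of the range. The 37116 probes that both arrays of some group measured well above background were fitted together with limma 3.58.1 in R 4.3.3, adjusted by Benjamini-Hochberg, and each gene was read from its brightest probe. Where a group was dim on both arrays, the bound set the brighter mean against the lowest signal well above background. A gene was named in the text if it was among the 10 largest rises or falls, the 4 largest changes or 3 brightest members within 2-fold in a list, the PCR genes of the study and Tlr9, or the 5 largest bounds each way. Other members named were chosen after their values were seen, and a few genes, some of which the rule names, are not reported here. Members and lists were chosen with earlier results of these data known. Motifs were searched in RefSeq promoter windows (GRCm38.p6) of the 13083 tested genes of 16571 named genes that had one.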

Additional observations from a re-analysis of the deposited data

Results flagged for a closer look

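Nppa, the gene for atrial natriuretic peptide, lay on opposite sides of NT in ODNcap-F and Ctrl-F, with Cap-F not considered. Its log2 levels were 6.73 and 6.05 in NT, 7.26 and 8.26 in ODNcap-F and 5.51 and 5.85 in Ctrl-F. Both ODNcap-F mice lay above both NT mice, by 1.37 on average (adjusted p 0.0764 in limma), and both Ctrl-F mice lay below, by 0.71 (adjusted p 0.308). Directly, ODNcap-F and Ctrl-F differed by 2.08 with an interval of 0.72 to 3.44 and an adjusted p of 0.702, so that the difference was not called, and the opposite directions themselves were not tested. Against NT the gene was called with an intensity trend (adjusted p 0.0347), when a Cap-F mouse was left out, and by a local-pooled-error test.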

How the results depend on the processing

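With 2 mice a group and slide row tied to the group, the precision is limited, and a mouse left alone in its group was assumed to vary like the others. The count of genes called in ODNcap-F against NT, 5999, ran from 5581 to 6000 when 1 mouse was left out. It fell to 3142 after normexp, with 1722 higher and 1420 lower, and in Ctrl-F against NT to 3548. It was 4338 in the deposited table, with fewer genes tested, and 5998 by the local-pooled-error test. Called genes that were higher made up 47.7%, and between 45.6% and 54.8% under the alternatives. Without the filter on dim probes 1 called gene turned direction. With the replicate number as a block 5989 genes were called, and same-numbered NT and ODNcap-F mice deviated with a correlation of -0.012. The same correlation with ODNcap-F was 0.058 for Ctrl-F and 0.161 for Cap-F. Whether same-numbered mice share more than a number was not tested. In ODNcap-F against Ctrl-F, where 0 genes were called, there were 8 without the filter, 133 by the local-pooled-error test, 64 by that test on the deposited table, 190 with no adjustment of p and 0 to 5 when 1 mouse was left out (5 without ODNcap-F mouse 1, 4 without ODNcap-F mouse 2). Of 121 genes named as higher 2307 of 2339 values kept direction and call, and of 68 named as lower 1295 of 1339. Of 112 named within 2-fold, 1764 of 1904 values stayed there. Of these within 2-fold, 23 turned sign under some alternative. Among named genes called or unsettled, the values that turned sign were 0.22 for Cxcl12 over the mean of its probes, 0.65 for Ifit1 without ODNcap-F mouse 1 (range -0.89 to 0.65 when 1 mouse was left out), and 0.11 and 0.35 for Adipoq without NT mouse 1 and ODNcap-F mouse 1 (range -0.75 to 0.35). Goblet cell genes called higher numbered 9 in the deposited table, and mast cell genes 2. After normexp 3 Toll-like receptor and 2 bronchomotor receptor genes were called higher and 1 junction gene lower. The cause of these changes was not tested.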
